A study of Mus musculus with 16 samples.

Results

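White adipocyte genes are 32 genes that fat cells use to take up, make, store and release fat and to send signals to other tissues. They were taken as a named list and not by their values, and each was read from the probe set that the probe-to-gene table gives to that gene alone, with the highest-mean probe set kept where a gene had several. Of the 32 genes, 27 had such a probe set, among 12394 genes with one in all. Signals high enough to test were found for 26 of the 27, among 9252 genes tested. Cfd, Plin1, Acsl1, Agpat2 and Adrb3 were not analysed here, and Acvr1c, a receptor of the TGF-beta family in adipocytes, had signals between 7.8 and 21.5 on all 16 arrays and was not tested.

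A white adipocyte keeps triglyceride in a single large droplet. Lipoprotein lipase frees fatty acids from circulating lipoproteins, carriers bring them into the cell, acyltransferases join them to a glycerol backbone, and lipases on the droplet release them again when the body calls for fuel. The transcription factors PPAR gamma and C/EBP alpha hold this programme in place. In the mammary gland the epithelial ducts grow through a pad of such fat, so RNA from a whole gland holds RNA of adipocytes.

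The arrays (Affymetrix Mouse Genome 430A 2.0) measured total RNA from 7 mammary tumours of mice with the STAT5ca transgene, a constitutively active form of STAT5, from 6 mammary tumours of mice with the STAT5Δ750 transgene, a form cut short at its C terminus, and from 3 normal mammary glands. STAT5 is the transcription factor through which prolactin acts on mammary epithelium. All mice were on an FVB/N background, and tumours were snap-frozen after excision. The labels used here give neither the age of the mice, the stage of the glands, the histology of the tumours nor the promoter of the transgenes, and they name no animals, so p-values measure the spread between these samples. Values are the authors' MAS5 signals, and a log2 change is a difference between group means of log2(signal + 8), given with the model's standard error.

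Across the arrays, the tumour labelled STAT5ca_177 stood apart, with a Krt8 signal of 25.3, against 708.1 to 1879.6 on the glands; Krt8 is a keratin of luminal epithelium. The 3'/5' signal ratio of beta-actin, a measure of RNA integrity, was 1.76 to 5.38 on STAT5ca tumours and 1.27 to 3.52 on STAT5Δ750 tumours, above the 1.07 to 1.25 of the glands on every tumour array. As many members were lower without STAT5ca_177, STAT5ca_124 and STAT5Δ750_254, when 22 of 26 were lower in each tumour type beside 18.1% and 17.8% of all genes, as with them. With the beta-actin ratio as a covariate the counts were 17 and 20 of 26, where 8.11% and 12.1% of all genes were lower.

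The glands carried the marks of white fat that the list names. Adipoq, the hormone adiponectin, had signals of 4736, 4505 and 5063 on the 3 glands, Lep, the satiety hormone leptin, 218.5, 229.4 and 229.0, and Retn, the hormone resistin, 1197, 1034 and 1995. The glands also held signal of brown fat, which shares many of these genes. Ucp1, the uncoupling protein that defines brown fat, had signals of 3139, 2162 and 296.4 on glands 1, 4 and 6. The part of brown fat in the gland signal of the members was not tested.

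Both tumour types had lower levels of nearly the whole list. By limma with Benjamini-Hochberg adjustment over the 9252 genes, 22 of the 26 members fell in STAT5ca tumours, where 13.2% of all genes tested fell, and the same 22 fell in STAT5Δ750 tumours, where 14% fell. None of the 26 rose, where 6.72% and 7.61% of all genes did (19.9% and 21.6% of genes passed in either direction), and the 26 estimates were below 0 in both comparisons. The median log2 change of the members was -3.62 in STAT5ca tumours and -3.45 in STAT5Δ750 tumours, beside -0.02 and -0.04 for all genes tested. The 2 comparisons share the 3 glands, so their likeness is not independent. In RNA of whole tissue, fewer fat cells and less RNA of a gene per fat cell cannot be told apart.

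The filter on low signals bears on these counts, since Pck1, Cidec, Pparg, Lep and Aqp7 passed it only through the glands. Of the other 21 members, which pass on tumour arrays alone, 17 fell in STAT5ca tumours and 17 in STAT5Δ750 tumours, against 10.3% and 11.1% of the genes that pass in that way. With no filter, 22 and 21 of 27 fell, beside 11.1% and 11.2% of 12394 genes. On the arrays themselves, every STAT5ca tumour lay below every gland for 20 members (13.3% of all genes tested), and every STAT5Δ750 tumour did so for 22 members (20.3%). For 19 members all 13 tumours lay below all 3 glands. The share of all genes with that pattern was not counted, and it cannot exceed the 13.3% found for STAT5ca tumours. These 19 members are not all free of the filter. Pck1, Cidec, Lep and Aqp7, which passed the filter only through the glands, are among them.

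**Figure D1:**
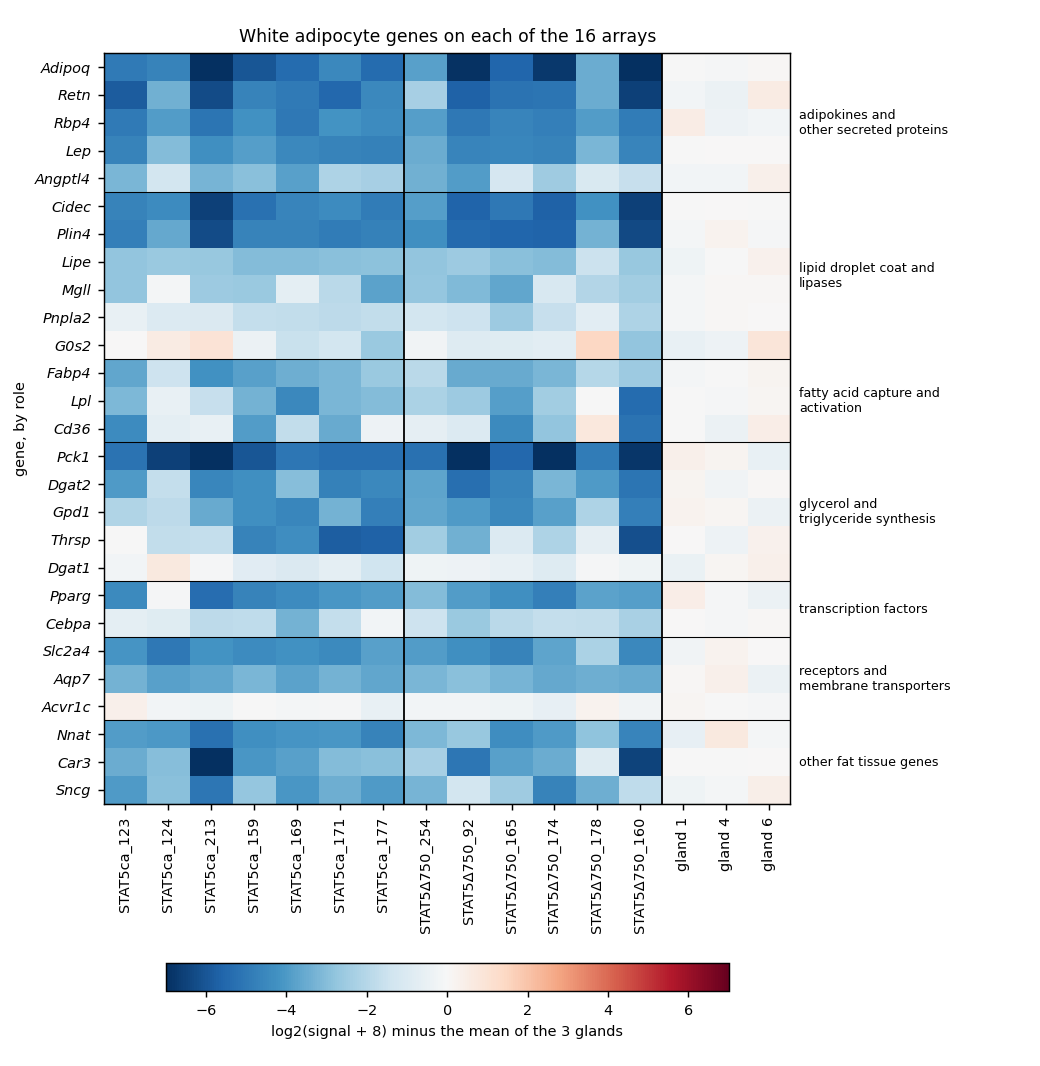
Level of each of 27 white adipocyte genes (rows, grouped by role) on each of the 16 arrays (columns), as log2(signal + 8) minus the mean of the 3 glands; blue is below and red above the gland mean. Adipoq, Pck1, Cidec and Plin4 are dark on nearly all tumour columns, while the rows of G0s2 and Dgat1 are pale and hold cells on either side of the gland mean.

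The heat map of members by array shows the 2 ends of the list: rows that are dark across all tumours and rows that change from tumour to tumour. The forest plot of log2 changes orders them from Pck1, the most lowered by the mean of the 2 changes, to Dgat1, the least lowered.

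**Figure D2:**
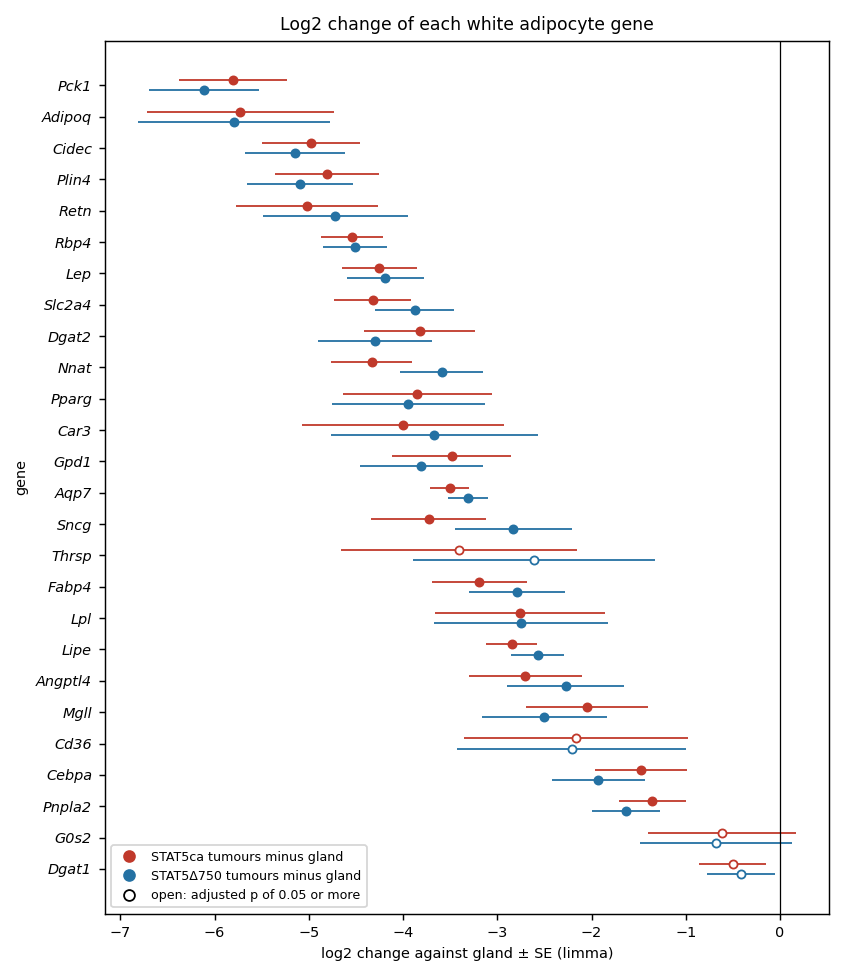
Log2 change of the 26 tested members in STAT5ca tumours (red) and STAT5Δ750 tumours (blue) against gland, with bars of 1 standard error of the limma model (n = 7, 6 and 3 arrays). Estimates run from -6.11 for Pck1 to -0.41 for Dgat1, and open circles mark Thrsp, Cd36, G0s2 and Dgat1, which did not pass an adjusted p of 0.05 in either comparison.

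Among the 6 secreted proteins of the list, 5 were measured and all 5 fell in both tumour types. The shares of all genes tested that fell were 13.2% and 14%. Adipoq had signals of 0.8, 106.5 and 197.8 (lowest, median and highest) on STAT5ca tumours, 7.6, 65.55 and 413.8 on STAT5Δ750 tumours and 4505 to 5063 on glands. Every tumour lay far below the lowest gland, and the mean signal was 2.38% of the gland mean in STAT5ca tumours and 3.19% in STAT5Δ750 tumours. Its log2 changes were -5.73 ± 1.0 (adjusted p = 0.000768) and -5.80 ± 1.02 (adjusted p = 0.00103).

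Lep lay between 0.9 and 20.9 on STAT5ca tumours, with a median of 2.2, and between 1.3 and 17.6 on STAT5Δ750 tumours, with a median of 1.65, against 218.5 to 229.4 on glands. The groups did not overlap, and most tumour signals were below the offset of 8, so the log2 changes of -4.25 ± 0.39 and -4.19 ± 0.40 understate the difference (adjusted p = 3.68e-06 and 8.97e-06). Rbp4, the carrier of retinol in blood, had the smallest adjusted p of the secreted proteins. Its signals were 11.2, 24.4 and 36.2 (lowest, median and highest) on STAT5ca tumours, 12.7, 18.0 and 38.6 on STAT5Δ750 tumours, and 973.3, 508.4 and 591.7 on the 3 glands. No tumour came near a gland, with log2 changes of -4.54 ± 0.33 (adjusted p = 4.96e-07) and -4.51 ± 0.34 (adjusted p = 1.13e-06).

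Retn fell, with log2 changes of -5.02 ± 0.75 and -4.72 ± 0.77 (adjusted p = 0.000227 and 0.000553). Its highest tumour signals were 123.1 on STAT5ca_124 and 267.0 on STAT5Δ750_254. Angptl4, a secreted inhibitor of lipoprotein lipase, was the least lowered secreted protein, at -2.70 ± 0.60 and -2.28 ± 0.62 (adjusted p = 0.00499 and 0.0161). On STAT5Δ750 tumours its signal reached 392.8, below the 737.0 of the lowest gland. The Angptl4 call was lost in both comparisons with the beta-actin ratio as a covariate (adjusted p = 0.136 in STAT5ca tumours), and in STAT5Δ750 tumours also without gland 4 or gland 6.

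The lipid droplet genes ran from some of the most lowered to some of the least lowered of the list. Cidec, which drives droplets to fuse into one, had signals of 0.3, 22.8 and 28.7 (lowest, median and highest) on STAT5ca tumours, 0.4, 11.95 and 46.0 on STAT5Δ750 tumours, and 762.2, 786.3 and 766.9 on glands. The glands lay within a narrow band and no tumour came near them, with log2 changes of -4.98 ± 0.52 (adjusted p = 8.74e-06) and -5.15 ± 0.53 (adjusted p = 1.32e-05). Plin4, a coat protein of droplets, had 10, 42.6 and 104.3 on STAT5ca tumours, 9.2, 22.1 and 129.3 on STAT5Δ750 tumours, and 1224, 1596 and 1289 on glands. Again the groups were apart, by -4.81 ± 0.55 and -5.09 ± 0.57 (adjusted p = 2.08e-05 and 2.32e-05).

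The lipases act in order on stored fat, Pnpla2 on triglyceride, Lipe on diglyceride and Mgll on monoglyceride. Lipe, hormone-sensitive lipase, had 66.7, 77.3 and 94.2 on STAT5ca tumours, 68.3, 86.6 and 212.6 on STAT5Δ750 tumours, and 496.2, 609.5 and 765.1 on glands. Every tumour was below every gland, and STAT5Δ750_178 stood above the other tumours, with log2 changes of -2.85 ± 0.27 (adjusted p = 3.92e-06) and -2.57 ± 0.28 (adjusted p = 1.85e-05).

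Pnpla2, adipose triglyceride lipase, was among the least lowered members, at 383.0, 421.6 and 954.8 on STAT5ca tumours, 229.7, 465.85 and 810.8 on STAT5Δ750 tumours, and 1261, 1446 and 1417 on glands. All tumours were still below all glands, and tumours kept 40.9% and 34.4% of the gland mean signal. Its log2 changes were -1.36 ± 0.35 (adjusted p = 0.0132) and -1.64 ± 0.36 (adjusted p = 0.00491). The STAT5ca call was lost without gland 4 and with arrays scaled to a common median (adjusted p = 0.0645 and 0.0644).

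Mgll, monoacylglycerol lipase, had 79.4, 188.4 and 1053 on STAT5ca tumours, 86.3, 189.45 and 520.5 on STAT5Δ750 tumours, and 1041, 1216 and 1210 on glands. STAT5ca_124 reached the level of the glands, and the other 12 tumours lay below them. The log2 changes were -2.05 ± 0.65 (adjusted p = 0.0350) and -2.50 ± 0.66 (adjusted p = 0.0140). Other Mgll probe sets had smaller changes, and with the mean of its probe sets the changes were -0.66 (adjusted p = 0.166) and -0.82 (adjusted p = 0.0912). The STAT5ca call was lost in 11 of the 27 other settings, among them leaving out any one gland or STAT5ca_123, STAT5ca_213, STAT5ca_159 or STAT5ca_171. The STAT5Δ750 call was lost with the mean of probe sets and without gland 4.

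G0s2, a protein that inhibits the lipase Pnpla2, had the weakest change but that of Dgat1. Its signals were 143.4, 660.4 and 1716 on STAT5ca tumours, 123.3, 508.15 and 2450 on STAT5Δ750 tumours, and 613.0, 707.9 and 1644 on glands. The 3 groups overlapped widely, and STAT5ca_213 and STAT5Δ750_178 were above all glands. The log2 changes were -0.61 ± 0.79 and -0.68 ± 0.81 (adjusted p = 0.625 and 0.577). So the enzyme Pnpla2 fell in both tumour types while no change of its inhibitor passed the test; the difference between the 2 genes was not tested.

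Fatty acid capture is represented by Fabp4, Lpl and Cd36. Fabp4, the fatty acid carrier of the adipocyte cytosol, had 430.7, 743.3 and 2921 on STAT5ca tumours, 692.3, 1121 and 2154 on STAT5Δ750 tumours, and 7464, 7864 and 9126 on glands. Every tumour was below every gland, by -3.19 ± 0.50 (adjusted p = 0.000333) and -2.79 ± 0.51 (adjusted p = 0.00140). It kept 13.2% and 16% of the gland mean signal. Other Fabp4 probe sets changed by -5.94 and -5.65 and by -3.10 and -2.92.

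Lpl, lipoprotein lipase, had 232.0, 596.7 and 3826 on STAT5ca tumours, 122.5, 950.45 and 5269 on STAT5Δ750 tumours, and 5265, 5135 and 5913 on glands. STAT5Δ750_178 lay within the range of the glands and the other 12 tumours below it. The log2 changes of -2.76 ± 0.90 and -2.75 ± 0.92 passed narrowly (adjusted p = 0.0415 and 0.0442), and leaving out any one gland ended both calls. Leaving out single tumours also ended them, STAT5ca_123, STAT5ca_159 and STAT5ca_171 among others, with adjusted p up to 0.128 over the settings tried. A second Lpl probe set changed by -2.39 and -2.32 (limma over every probe set tested, adjusted p = 0.00847 and 0.0115).

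Cd36, a membrane protein that takes up fatty acids, had 136.2, 930.7 and 2382 on STAT5ca tumours, 76.7, 1024 and 5129 on STAT5Δ750 tumours, and 3019, 2317 and 4207 on glands. Its tumours spread over a wide range: STAT5ca_177 and STAT5Δ750_178 reached gland levels, while STAT5ca_123 and STAT5Δ750_160 lay far below. The log2 changes were -2.17 ± 1.19 (adjusted p = 0.219) and -2.21 ± 1.22 (adjusted p = 0.208), with no call in any of the 27 other settings. Macrophages express Cd36 as well, and the mean of 11 macrophage genes was 2.13 above the gland mean on STAT5ca_177, the highest of all arrays, beside -1.01 on STAT5Δ750_178. Across groups that mean was -1.52 to 2.13 in STAT5ca tumours, -1.34 to 0.06 in STAT5Δ750 tumours and -0.20 to 0.16 in glands, and its part in the Cd36 levels was not tested.

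In the making of triglyceride, Pck1 supplies the glycerol backbone from pyruvate and lactate, Gpd1 supplies it from glucose, and Dgat2 and Dgat1 add the last fatty acid. Pck1 had the largest mean change of the list. Its signals were 0.9, 28.6 and 35.1 on STAT5ca tumours, 0.9, 14.65 and 40.6 on STAT5Δ750 tumours, and 1836, 1628 and 976.2 on glands. Tumours kept 1.43% and 1.18% of the gland mean signal, with log2 changes of -5.80 ± 0.57 (adjusted p = 5.88e-06) and -6.11 ± 0.59 (adjusted p = 8.62e-06). A second Pck1 probe set was dim, and with the mean of both the changes were -2.68 and -2.79.

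Gpd1 had log2 changes of -3.48 ± 0.63 in STAT5ca tumours and -3.81 ± 0.65 in STAT5Δ750 tumours (adjusted p = 0.00107 and 0.000781), with tumour signals of 52.5 to 449.9 and 51.1 to 364.4 against 1256 to 1981 on glands. Another Gpd1 probe set had changes of 0.77 and 0.81 that did not pass, and the mean of the gene's probe sets gave -1.23 and -1.21. Dgat2 changed by -3.82 ± 0.59 and -4.30 ± 0.60 (adjusted p = 0.000282 and 0.000173), and its highest tumour signal was 563.5 on STAT5ca_124, below the 1529 of the lowest gland.

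Dgat1, the other enzyme of that last step, had 181.1, 302.7 and 785.5 on STAT5ca tumours, 260.0, 392.35 and 465.3 on STAT5Δ750 tumours, and 350.7, 551.5 and 626.5 on glands. The groups overlapped, and tumours held 75.5% and 73.7% of the gland mean signal. Its log2 changes were -0.50 ± 0.35 (adjusted p = 0.344) and -0.41 ± 0.36 (adjusted p = 0.439), the least negative of the list.

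Thrsp, a nuclear protein that goes with fatty acid synthesis in fat and in milk-making epithelium, split the tumours. It had 77.2, 224.7 and 4668 on STAT5ca tumours, 57.5, 956.65 and 3038 on STAT5Δ750 tumours, and 4782, 3676 and 5813 on glands. Only STAT5ca_123 reached the glands. The log2 changes of -3.41 ± 1.25 and -2.61 ± 1.28 were large and uncertain (adjusted p = 0.0673 and 0.159), and the first passed without STAT5ca_123 (-3.98, adjusted p = 0.0247) or without STAT5Δ750_160 (adjusted p = 0.0392).

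Thrsp, G0s2 and Dgat1 were highest in those STAT5ca tumours that had the highest milk protein signal, and in STAT5Δ750 tumours the orders differed. STAT5ca_123, STAT5ca_124 and STAT5ca_213, whose mean over 10 milk protein genes was 0.45 to 0.50 above the gland mean, had the 3 highest STAT5ca signals of Thrsp (1407 to 4668), of G0s2 (910.7 to 1716) and of Dgat1 (432.7 to 785.5). The other 4 STAT5ca tumours had milk protein means of -4.42 to -1.62, Thrsp signals of 77.2 to 224.7, G0s2 signals of 143.4 to 660.4 and Dgat1 signals of 181.1 to 302.7. Of the STAT5Δ750 tumours, STAT5Δ750_178 had the highest milk protein mean, 1.40, and the highest signals of all 3 genes. Among all 13 tumours it held the highest signal of 10 members. STAT5Δ750_165 had the lowest milk protein mean of that type, -1.62, and its second-highest Thrsp signal, 2370. STAT5Δ750_160, with a milk protein mean of -1.18, had a Dgat1 signal of 401.9, beside 402.3 on STAT5Δ750_254 with a mean of -0.12. STAT5ca_123, STAT5ca_124 and STAT5ca_213 also had the highest beta-actin ratios of the STAT5ca tumours, 3.72 to 5.38 against 1.76 to 2.53 on the others. Pnpla2 and Lipe split in the same way, at 666.6 to 954.8 against 383.0 to 421.6 and at 83 to 94.2 against 66.7 to 77.3. Other members did not. Adipoq, Car3, Cidec, Fabp4, Rbp4 and Pparg, among others, had their lowest STAT5ca signal on STAT5ca_213, and Cebpa had its highest on STAT5ca_177. Milk protein means were -1.62 to 1.40 over all STAT5Δ750 tumours and -0.93 to 1.25 over glands. The part of milk protein level or of RNA integrity in these signals was not tested.

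Both transcription factors fell, Pparg more than Cebpa. Pparg, the receptor that directs fat cell formation, had 0.8, 9.2 and 333.9 on STAT5ca tumours, 5.2, 16.05 and 35.6 on STAT5Δ750 tumours, and 493.5, 330.8 and 260.6 on glands. STAT5ca_124 alone lay at the level of the glands, and the next STAT5ca tumour was at 15.4. The log2 changes were -3.85 ± 0.79 (adjusted p = 0.00285) and -3.94 ± 0.81 (adjusted p = 0.00305).

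Cebpa, its partner in mature fat cells, had 109.0, 348.8 and 1012 on STAT5ca tumours, 182.3, 321.9 and 415.7 on STAT5Δ750 tumours, and 1174, 1069 and 1195 on glands. Every tumour was below every gland, though STAT5ca_177 only just. The log2 changes were -1.48 ± 0.48 (adjusted p = 0.0421) and -1.93 ± 0.50 (adjusted p = 0.0121). The STAT5ca call was lost in 12 of the 27 other settings, among them leaving out any one gland or STAT5ca_213, STAT5ca_159 or STAT5ca_171 (adjusted p up to 0.171). The STAT5Δ750 call was lost without gland 1 (adjusted p = 0.0501).

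Of the transporters, Slc2a4, the glucose carrier that insulin brings to the surface, had 21.3, 41.4 and 59.5 on STAT5ca tumours, 29.3, 47.85 and 196.5 on STAT5Δ750 tumours, and 785.6, 1095 and 959.3 on glands. No tumour reached a gland, and it changed by -4.32 ± 0.41 and -3.88 ± 0.42 on the log2 scale (adjusted p = 3.84e-06 and 1.85e-05). Skeletal muscle also uses this carrier, and all 16 muscle genes tested fell in STAT5ca tumours and 15 of 16 in STAT5Δ750 tumours. Of all genes tested, 13.2% and 14% fell. The muscle part of the Slc2a4 signal was not tested.

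Aqp7, the channel by which glycerol leaves the fat cell, had the smallest adjusted p of the whole list. Its signals were 1.1, 2.3 and 5.9 on STAT5ca tumours, 2.4, 4.55 and 8.7 on STAT5Δ750 tumours, and 124.2, 152.2 and 86.0 on glands. Tumour signals lay close to or under the offset of 8, which narrows their spread on the log2 scale. The log2 changes were -3.51 ± 0.21 (adjusted p = 1.85e-07) and -3.31 ± 0.22 (adjusted p = 3.70e-07). With an offset at the 40th percentile of all signals they became -2.0 and -1.94. A second Aqp7 probe set changed by -2.38 and -1.89 (limma over every probe set tested, adjusted p = 2.20e-05 and 0.000276).

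The last 3 members, Nnat, Sncg and Car3, are abundant in fat tissue. Nnat, the imprinted gene of neuronatin, had 3.1, 16.3 and 19.4 on STAT5ca tumours, 8.9, 28.7 and 59.2 on STAT5Δ750 tumours, and 273.7, 667.3 and 375.0 on glands. It changed by -4.33 ± 0.43 and -3.59 ± 0.44 on the log2 scale, with no overlap between tumours and glands (adjusted p = 6.09e-06 and 5.63e-05). Sncg, gamma-synuclein, changed by -3.73 ± 0.61 and -2.83 ± 0.62 (adjusted p = 0.000472 and 0.00471), with its highest tumour signal, 177.2 on STAT5Δ750_92, below the 367.2 of the lowest gland.

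Car3, carbonic anhydrase of fat and muscle, had 31.9, 792.5 and 1153 on STAT5ca tumours, 89.4, 700.15 and 4695 on STAT5Δ750 tumours, and 8735, 8524 and 9024 on glands. All tumours were below all glands, over the widest tumour range of the list, 6.88 log2 units. The log2 changes were -4.01 ± 1.07 (adjusted p = 0.0149) and -3.67 ± 1.10 (adjusted p = 0.0265), and both calls were lost without any one of the glands. With the beta-actin ratio as a covariate they were -2.32 (adjusted p = 0.307) and -2.66 (adjusted p = 0.126). A second Car3 probe set changed by -5.84 and -5.22 (limma over every probe set tested, adjusted p = 0.000342 and 0.00125).

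**Figure D3:**
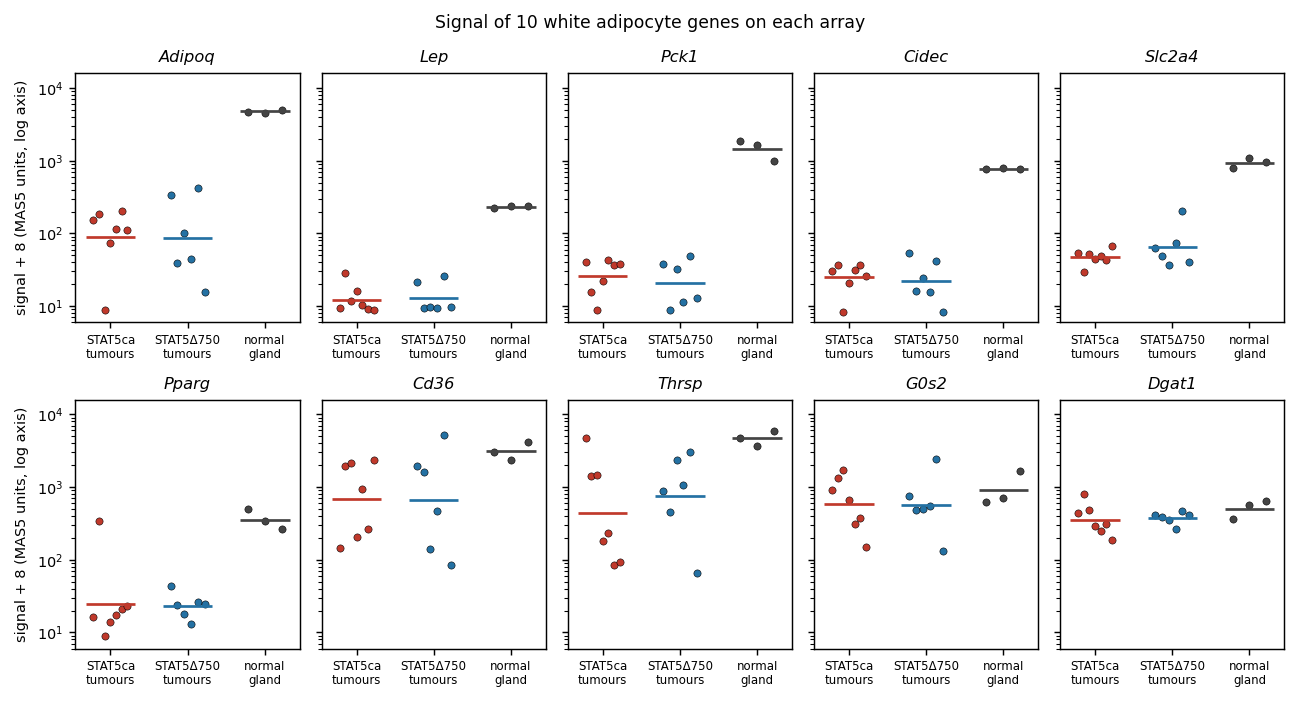
Signal plus 8 (MAS5 units, log axis) of 10 members on each array, in STAT5ca tumours, STAT5Δ750 tumours and normal glands, with a bar at each group's mean of log2(signal + 8). Adipoq, Lep, Pck1, Cidec and Slc2a4 leave a gap between tumours and glands, Pparg has STAT5ca_124 at gland level, and Cd36, Thrsp, G0s2 and Dgat1 overlap the glands.

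The dot plot of 10 members sets these patterns side by side. In the upper row no tumour of either type comes near the glands. In the lower row tumours reach the lowest gland, 1 of 13 for Pparg and for Thrsp, 2 for Cd36, 6 for G0s2 and 7 for Dgat1. STAT5ca_123, STAT5ca_124, STAT5ca_213, STAT5Δ750_254 and STAT5Δ750_178 do so for both G0s2 and Dgat1.

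Between the tumour types no member passed the test. By limma, 0 of 26 members and 0% of the 9252 genes were called between STAT5ca and STAT5Δ750 tumours, while 1 member and 525 genes had an unadjusted p under 0.05. That member was Nnat, with a log2 difference of -0.74 (STAT5ca minus STAT5Δ750, 95% interval from -1.48 to just below 0, adjusted p = 0.875). Sncg differed by -0.90 (-1.94 to 0.14, adjusted p = 0.885), the largest difference of the list, and Dgat2 by 0.48 (-0.53 to 1.49). The 95% intervals extended 0.36 to 2.14 to either side of the estimates, with a median of 0.99, so a difference of about that size in either direction lies within the error.

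Tumours differed among themselves in how much signal they kept. The mean level of the 26 members relative to gland was -3.95 to -2.34 in STAT5ca tumours and -4.31 to -2.19 in STAT5Δ750 tumours. STAT5Δ750_178 held the highest tumour signal of 10 members, among them Adipoq, Lpl, Cd36, Car3, Plin4 and Lipe, and STAT5ca_124 that of 7, among them Pparg, Mgll, Dgat2, Gpd1 and Fabp4. At the other end STAT5ca_213 had the lowest signal of 9 members and STAT5Δ750_160 of 7. STAT5ca_124 and STAT5Δ750_178 each reached the lowest gland for 4 members, and 4 of the other tumours for none.

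**Figure D4:**
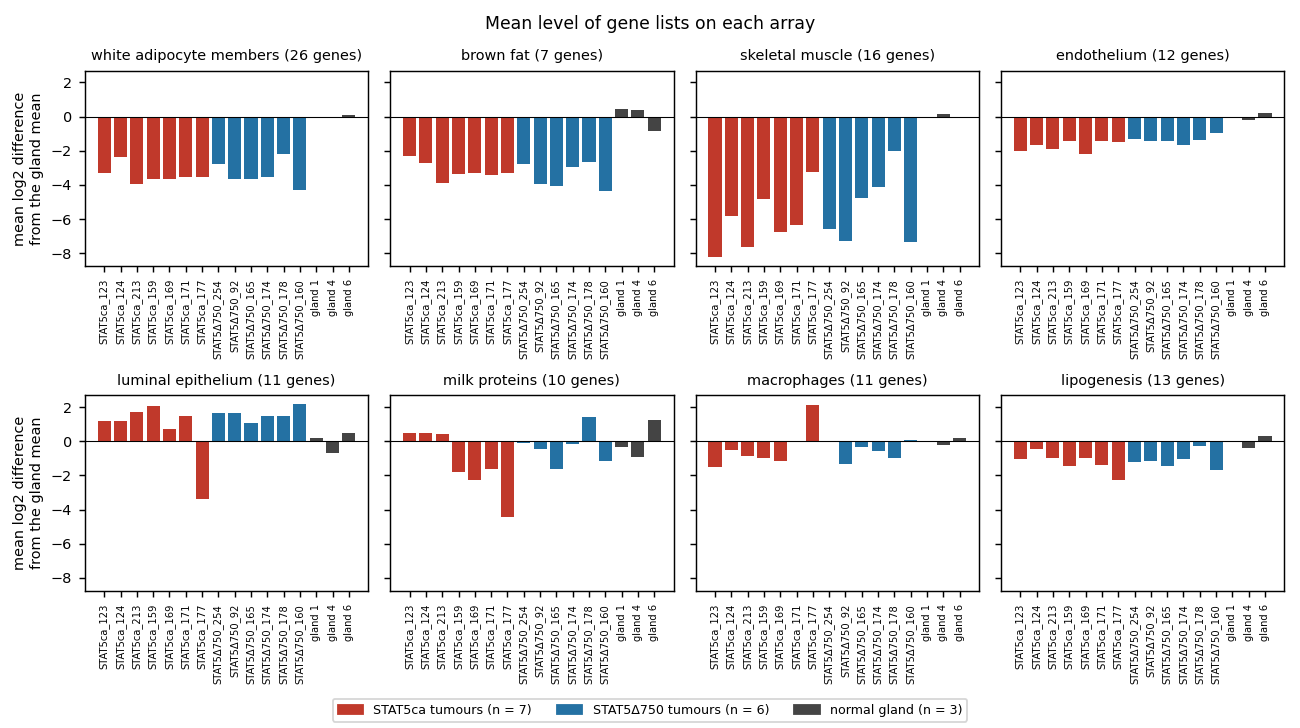
Mean log2(signal + 8) of 8 gene lists on each array, relative to the mean of the 3 glands, for STAT5ca tumours (red), STAT5Δ750 tumours (blue) and glands (grey). The white adipocyte genes lie at -4.31 to -2.19 on the 13 tumours, brown fat, muscle and endothelial lists are below gland as well, and luminal epithelium is above it on 12 of 13 tumours.

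Genes of brown fat, skeletal muscle and endothelium were lower in tumours as well, as the bar plot of gene lists shows. Of all genes tested, 13.2% fell in STAT5ca tumours and 14% in STAT5Δ750 tumours. Brown fat genes fell for 4 of 7 in each tumour type, Ucp1 with log2 changes of -6.20 ± 0.80 and -6.77 ± 0.82 (adjusted p = 6.53e-05 and 5.13e-05). Muscle genes are described above, and Actn3, an actin anchor of fast muscle fibres, changed by -6.83 ± 1.05 and -6.35 ± 1.07. Endothelial genes were lower too, 8 of 12 in either tumour type, and Kdr, the main receptor of VEGF, changed by -2.56 ± 0.20 and -2.30 ± 0.21. STAT5Δ750_178, which kept the most adipocyte signal, also had the highest muscle mean of all tumours, -2.04 relative to gland, where the other STAT5Δ750 tumours went down to -7.32. The next in each did not match: STAT5ca_124 had the second-highest adipocyte mean, -2.34, with a muscle mean of -5.83, and STAT5ca_177 the second-highest muscle mean, -3.24, with an adipocyte mean of -3.56. What these tissues share with the adipocyte genes in the dissected samples was not tested.

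Of 11 luminal epithelium genes, STAT5ca tumours had 1 higher and 1 lower, and STAT5Δ750 tumours 3 higher and 1 lower. Of all genes tested, 6.72% and 7.61% were higher and 13.2% and 14% lower. So 1 of 11 lower is no more than the share of all genes. The one that fell in both was Foxa1, a transcription factor of hormone-responsive luminal cells, with log2 changes of -3.03 ± 0.72 (adjusted p = 0.00761) and -2.20 ± 0.74 (adjusted p = 0.0449). The mean of the 11 genes relative to gland was 0.74 to 2.06 on STAT5ca tumours other than STAT5ca_177, at -3.40, and 1.07 to 2.17 on STAT5Δ750 tumours, while glands ran from -0.67 to 0.48. The adipocyte mean on STAT5ca_177 was -3.56, within the range of the other STAT5ca tumours.

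Genes of the same pathways that are no members were counted in the same way. For these counts too, 13.2% and 14% of all genes tested fell, and 6.72% and 7.61% rose. Of 13 lipogenesis genes tested, 5 fell and 1 rose in STAT5ca tumours and 6 fell and 1 rose in STAT5Δ750 tumours, with medians of -1.59 and -1.34. Elovl6, a fatty acid elongase, changed by -2.80 ± 0.65 and -2.44 ± 0.66, and Gpam, which starts triglyceride synthesis, by -1.90 ± 0.46 and -2.20 ± 0.48 (adjusted p of 0.0162 or less). Scd2, a desaturase, rose by 1.46 ± 0.20 (adjusted p = 8.84e-05) and 1.61 ± 0.20 (adjusted p = 6.89e-05), with 2196 to 4173 on STAT5ca tumours and 2763 to 3701 on STAT5Δ750 tumours against 939.8 to 1161 on glands.

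Of 15 further genes of lipolysis, insulin response and droplets, 7 fell in each tumour type and 1 rose in STAT5ca tumours. The shares of all genes just given apply here as well. Plin5, a droplet coat protein of tissues that burn fat, changed by -2.55 ± 0.35 and -2.91 ± 0.36, Lepr, the leptin receptor, by -3.09 ± 0.53 and -2.08 ± 0.55, and Cav1, the caveolar coat protein, by -3.11 ± 0.58 and -2.0 ± 0.59. The droplet coat gene Plin3, which many cell types express, rose by 1.28 ± 0.40 in STAT5ca tumours (adjusted p = 0.0327) and stood at 1.16 ± 0.41 in STAT5Δ750 tumours (adjusted p = 0.0538). Of 9 adipogenic regulators, 3 fell in each type, Zfp423, Klf15 and Nr1h3, with log2 changes from -3.94 to -1.64. Klf5 rose in STAT5Δ750 tumours, by 2.15 ± 0.71 (adjusted p = 0.0403), and stood at 1.38 ± 0.69 in STAT5ca tumours (adjusted p = 0.176).

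The sequence around the gene start was compared because the members move together yet by very unlike amounts. RefSeq promoters (build GRCm38.p6, 250 bases before to 50 after the start) were found for 19 of the 27 measured members. The 3 most and the 3 least lowered of these are printed 5' to 3' along the gene, with CG dinucleotides, the sites of DNA methylation, in capitals. The most lowered are Pck1 at chr2:173152823-173153122 (+ strand), Adipoq at chr16:23146286-23146585 (+ strand) and Cidec at chr6:113435711-113436010 (- strand).
Pck1: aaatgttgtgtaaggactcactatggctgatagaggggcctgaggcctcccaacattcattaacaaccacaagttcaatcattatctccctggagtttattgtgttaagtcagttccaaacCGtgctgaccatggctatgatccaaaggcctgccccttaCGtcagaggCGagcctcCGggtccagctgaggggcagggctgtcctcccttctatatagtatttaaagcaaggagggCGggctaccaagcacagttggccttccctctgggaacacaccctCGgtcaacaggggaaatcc
Adipoq: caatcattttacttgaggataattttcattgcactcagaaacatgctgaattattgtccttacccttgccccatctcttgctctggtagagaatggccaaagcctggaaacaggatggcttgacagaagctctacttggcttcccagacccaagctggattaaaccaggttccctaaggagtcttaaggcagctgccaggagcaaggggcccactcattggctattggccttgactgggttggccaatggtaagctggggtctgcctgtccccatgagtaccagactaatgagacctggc
Cidec: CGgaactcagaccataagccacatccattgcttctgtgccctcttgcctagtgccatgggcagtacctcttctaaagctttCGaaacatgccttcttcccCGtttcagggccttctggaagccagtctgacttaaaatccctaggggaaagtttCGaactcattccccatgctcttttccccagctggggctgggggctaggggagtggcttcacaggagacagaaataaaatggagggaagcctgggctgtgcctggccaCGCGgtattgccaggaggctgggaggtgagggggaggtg
The least lowered are Cebpa at chr7:35119043-35119342 (+ strand), Pnpla2 at chr7:141454938-141455237 (+ strand) and G0s2 at chr1:193273139-193273438 (- strand).
Cebpa: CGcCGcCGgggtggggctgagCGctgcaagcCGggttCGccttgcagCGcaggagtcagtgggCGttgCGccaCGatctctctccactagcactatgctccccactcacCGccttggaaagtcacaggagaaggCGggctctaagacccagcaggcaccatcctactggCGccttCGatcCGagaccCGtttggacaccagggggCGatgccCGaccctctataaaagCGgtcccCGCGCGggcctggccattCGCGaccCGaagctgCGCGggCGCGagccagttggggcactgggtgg
Pnpla2: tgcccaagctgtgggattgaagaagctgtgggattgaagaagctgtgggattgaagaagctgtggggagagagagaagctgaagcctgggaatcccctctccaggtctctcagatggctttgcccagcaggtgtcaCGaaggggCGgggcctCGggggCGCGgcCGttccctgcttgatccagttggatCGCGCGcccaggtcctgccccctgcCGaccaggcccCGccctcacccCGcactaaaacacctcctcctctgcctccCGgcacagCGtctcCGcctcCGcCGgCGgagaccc
G0s2: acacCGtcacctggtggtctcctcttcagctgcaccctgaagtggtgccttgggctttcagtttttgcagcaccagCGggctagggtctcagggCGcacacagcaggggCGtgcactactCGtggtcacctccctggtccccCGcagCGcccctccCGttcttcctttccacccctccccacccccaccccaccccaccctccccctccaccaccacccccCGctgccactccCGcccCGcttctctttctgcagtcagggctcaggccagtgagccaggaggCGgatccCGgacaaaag

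The first 3 sequences hold 6, 0 and 6 CG dinucleotides, and the last 3 hold 29, 18 and 13. The start of Cebpa has the most of these 6, and that of Adipoq has none. For a gene with several entries, only the first was counted. Over the 19 members the median was 9, beside 21 for the 7452 genes tested that have an entry (quartiles 12 and 28) and 7 for all 27025 genes of the table. The Spearman correlation of the CG count with the mean log2 change was 0.42 over 18 members, which share the same 16 arrays, and 0.09 over the 7452 genes, given as a description. Pparg, with 44, and Lep, with 19, are strongly lowered members with many, and Cd36, with 3, a less lowered one with few. A low gland signal and the offset of 8 limit how far a gene can fall. Mean log2(signal + 8) on glands was 6.97 for Aqp7 and 7.87 for Lep, beside 12.2 for Adipoq. The part of gland level in this order of members was not tested.

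**Figure D5:**
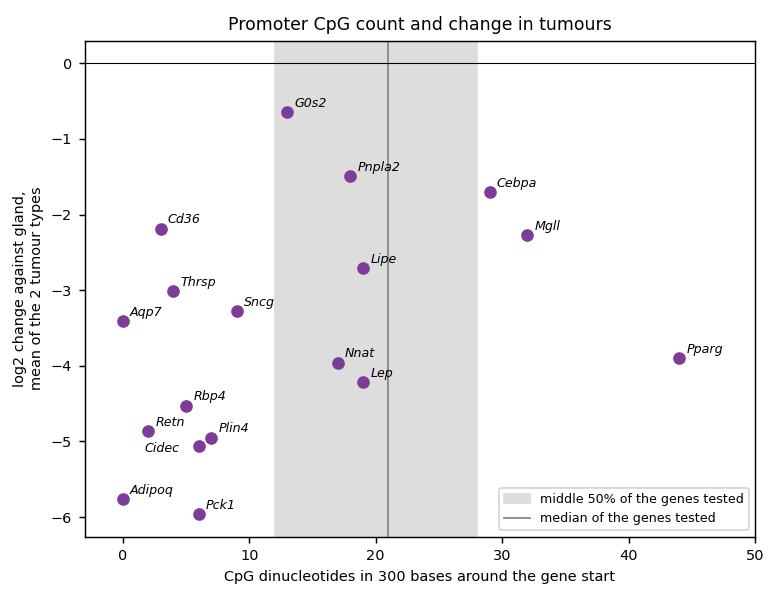
Number of CG dinucleotides in 300 bases around the gene start (RefSeq, GRCm38.p6) against the mean of the log2 changes in STAT5ca and STAT5Δ750 tumours against gland, for 18 members. The line and the band mark the median (21) and the quartiles (12 and 28) of the genes tested; Pck1, Adipoq, Cidec, Plin4, Retn and Rbp4, the 6 most lowered, have 0 to 7.

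Motifs of the factors named above were searched on both strands of the windows of all entries, where the CG counts used the first entry of a gene. The C/EBP half-sites joined as TTNNGCAA were found at Cidec, Lep, Pparg and Rbp4, in 4 of 27 promoter entries of the members (14.8%), beside 10.8% of all 32851 promoters. The direct repeat of PPAR and RXR, the letters AGGNCA given once more after a single spacer base, was in none of the members' windows and in 0.381% of all promoters. The STAT motif TTCNNNGAA was at Lipe and in 8.30% of all promoters. None of the 6 printed sequences held any of the 3 motifs, and Cidec has its match in another entry of the gene.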

How the data were processed

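Each deposited value is a MAS5 signal made by the authors, an intensity on a linear scale for each of 22690 probe sets and 16 arrays, and the submitters' processing notes name MAS5 with no version. The trimmed mean of each array, without 2% of probe sets at either end, was 250.08 or 250.09, and array medians ran from 57.3 to 90.7. Detection calls were not used here, and the number of arrays limits the precision.

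Signals were used as deposited, as log2(signal + 8). Of the probe sets, 20393 had 1 symbol, 691 several and 1606 none. A single probe set per gene, that with the highest mean, was tested where its signal was above 35.4, the 40th percentile, on at least 3 arrays, which left 9252 of 12394 genes. A linear model of the 3 groups was fitted in limma 3.58.1 (R 4.3.3), with moderated tests and Benjamini-Hochberg adjustment over all genes tested and a threshold of 0.05. On simulated data (9252 genes, 5 draws of 200 changed genes) it recovered 27.4% and 26.0% of 2-fold and 72.2% and 71.4% of 4-fold changes for STAT5ca and STAT5Δ750 tumours against gland, with 6.92% and 6.59% of calls false. The draws gave each gene 1 normal spread for all 3 groups. In the data the spreads differed, as for Adipoq (SD 0.08 on glands, 1.56 and 1.87 on tumours) and, the other way, Aqp7 (0.39, 0.245 and 0.245). These rates may not hold for such members.

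All 32 genes are named. Gland signals on each array and the lowest, median and highest tumour signals are given for the 4 most and 6 least lowered, the one with the smallest adjusted p in each role and those that did not pass, and for further members. From other lists, the 3 genes with the smallest adjusted p in STAT5ca tumours could be named, with Ucp1, Krt8, Kdr and Actn3. Klf5 and Plin3 were named after their values were seen. The genes and lists were chosen with earlier results of these data known. No batch or date is given in the labels used here.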

Additional observations from a re-analysis of the deposited data

Results flagged for a closer look

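In 5 of 54 sets of values, a gene in a tumour type, 1 array lay far from the others of its type, by the gap to its neighbour as a share of the whole range on the log2(signal + 8) scale. For independent sets of normal values, chance gives about 5%. These sets share the same 13 tumour arrays, and some of the signals lie under the offset of 8. The count is therefore given as a description. STAT5ca_213 was the low array for Car3, at a signal of 31.9 with the next at 519.4 and the highest at 1153 (share 0.766), for Adipoq, at 0.8 with the next at 66.5 and the highest at 197.8 (share 0.678), and for Cidec, at 0.3 with the next at 12.6 and the highest at 28.7 (share 0.612). STAT5ca_124 was the high array for Pparg, at 333.9 with the next at 15.4 and the lowest at 0.8 (share 0.733). STAT5Δ750_178 was the high array for Lipe, at 212.6 with the next at 97.0 and the lowest at 68.3 (share 0.699). A share above 0.568 for the 7 STAT5ca tumours, or above 0.625 for the 6 STAT5Δ750 tumours, marked an array.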

How the results depend on the processing

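The number of members lower than gland was 17 to 23 in STAT5ca tumours and 18 to 22 in STAT5Δ750 tumours when 1 array at a time was left out, with the lowest counts without gland 4, where 8% to 17.5% and 7.67% to 17.9% of all genes were lower over those fits. In the other alternatives tried it was 17 to 22 and 20 to 22. There, 8.11% to 18.1% and 10.2% to 18.5% of all genes were lower. No member was called between the tumour types under any of them, and the estimates of all 26 members stayed below 0 against gland. In every alternative in which they were tested, 16 of the 22 members kept both calls. The share of all called genes that did so was not counted. The 6 that lost one somewhere were Angptl4, Car3, Cebpa, Lpl, Mgll and Pnpla2, and why was not tested. Over all genes, 1059, 959 and 1331 passed in STAT5ca tumours without gland 1, 4 and 6, against 1844 with all, and 1095, 953 and 1377 in STAT5Δ750 tumours, against 2000. With arrays scaled to a common median, 18 and 21 members were lower beside 9.18% and 10.2% of all genes, while the median of all genes moved to 0.26 and 0.08. With an offset at the 40th percentile Lep stood at -2.69 and -2.67, and with the mean of its probe sets Angptl4 stood at -1.57 and -1.33, both still called. Leaving out STAT5ca_124, STAT5ca_177 and STAT5Δ750_254 together, chosen after seeing the data, left 22 and 22. No paired analysis was possible because the groups share no replicate numbers. Only 3 glands were measured, and signals near the offset of 8 understate changes.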
